A study of Homo sapiens with 9 samples.

Results

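The dose step of Salvianolic acid B (SalB) from 100 µM to 200 µM was examined in A375, a cell line established from human melanoma that carries an activating BRAF mutation, after 48 h of exposure. SalB is a water-soluble polyphenol of the root of Salvia miltiorrhiza. The comparison used the 6 libraries of SalB-treated cells, 3 at each dose, out of 9 libraries in all. The other 3 libraries came from untreated A375 cells and entered no test of the dose step; their levels are given beside named genes as a description. All cells were kept in the same serum-containing medium, the labels give a single batch, and the libraries of a dose are described there as biological replicates. The cells of every group are 1 cultured line, with no stroma or immune cells of a tumour. Messenger RNA was captured on poly-T beads and read by paired-end sequencing, and the count table gave whole-number counts for 20463 annotated genes.

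As background, a cell that divides switches on the genes of DNA replication and then those of mitosis in turn, through the E2F factors and then through the DREAM and MYB-MuvB complexes, which bind the CHR element and cooperate with NF-Y at CCAAT boxes. Sensors of infection and damage act through other factors. NF-kB drives cytokines and survival genes, and interferons act through STAT and IRF factors on the interferon-stimulated response element (ISRE). Oxidants and electrophiles release NRF2, misfolded proteins in the endoplasmic reticulum (ER) set off the unfolded protein response, and many stresses converge on ATF4 and on the immediate early genes of the AP-1 family.

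Total counts were 29996059 to 30629685 per library at 100 µM and 27348621 to 28468350 at 200 µM, and 15121 to 15565 genes had at least 1 count. One library stood apart from the others of its dose. Replicate 3 at 200 µM held 4.75% of its annotated counts in mitochondrially encoded mRNAs (Wilson 95% interval 4.74% to 4.76%, counting error only), against 1.87% and 1.83% in the other two libraries at 200 µM and 2.86% to 3.15% at 100 µM. In the same library the GC-richest eighth of genes lay 1.08 log2 units lower against the GC-poorest eighth than the mean of the 100 µM libraries, while the others of its dose stood at -0.26 and 0.21. Untreated libraries stood at -0.83, -0.98 and -0.64 on this measure, nearer to replicate 3 of 200 µM than those of its own dose were. The results were computed with and without replicate 3 of 200 µM. Of the melanoma markers, SOX10 mRNA, of the neural crest factor, was found in each of the 6 libraries at 411 to 552 CPM, and TYR, the tyrosinase gene, had 0 counts in all of them. CPM, used throughout, is the usual unit of counts scaled to library size. The lymphocyte markers CD3E, CD3D and MS4A1, the epithelial markers KRT5 and GRHL2 and the endothelial marker CDH5 also had 0 counts in these libraries. Other members of these lists had counts. The 11 epithelial and keratinocyte markers together stood at 317 to 349 CPM at 100 µM and 316 to 438 CPM at 200 µM. Leukocyte, fibroblast and endothelial markers with counts are given below.

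**Figure D1:**
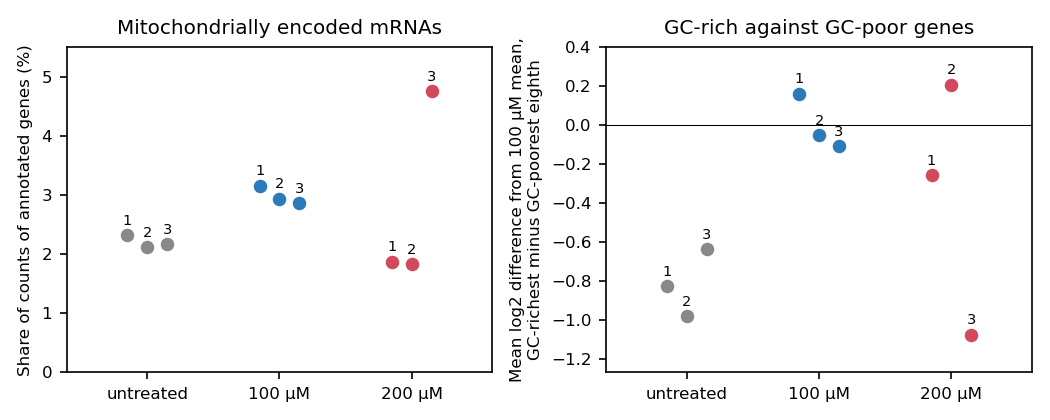
Share of annotated counts in mitochondrially encoded mRNAs (left, percent) and how far the eighth of genes richest in GC lay above the eighth poorest in GC, as a mean log2 difference from the libraries at 100 µM (right), one point per library with its replicate number. Replicate 3 at 200 µM sits at 4.75% and at -1.08, away from the other two libraries of its dose.

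The step from 100 µM to 200 µM moved 4867 of 13783 genes tested, 35.3%, past an adjusted p of 0.05. At 200 µM 2480 genes were higher (18.0% of those tested) and 2387 were lower (17.3%), and these shares are the background for each count of a gene group below. A change of at least 2-fold was seen for 960 genes that rose and 899 that fell, and of at least 4-fold for 289 and 204. The median log2 fold change over all genes tested was -0.00589. The libraries of the 2 doses did not overlap for 7394 of the 13783 genes tested and for 4865 of the 4867 called. Without replicate 3 of 200 µM, 7103 genes were called, among them 4807 of the 4867, all of these in the same direction; 2828, 2844 and 2962 genes were called without replicate 1, 2 or 3 of 100 µM, respectively. Calls are from the quasi-likelihood F test of edgeR on the 6 libraries with Benjamini-Hochberg adjustment, fold changes are log2 of 200 µM over 100 µM ± SE with n = 3 libraries a dose, and "higher" and "lower" refer to 200 µM. Genes said to rise or fall passed this test. Of 164 called genes chosen by the naming rule, the 23 with an adjusted p above 0.01 and PSMB3 lost their call in at least 1 other fit, and those named here are listed with the limits.

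The genes with large rises included cytokines, antiviral genes and heme oxygenase. IL24 (chr1:206897443-206904139 on GRCh38), a cytokine of the IL-10 family first cloned from differentiating melanoma cells, stood at 6.52, 6.84 and 6.93 CPM at 100 µM and 1479, 1479 and 1012 CPM at 200 µM (log2 fold change 7.61 ± 0.21, adjusted p = 1.1e-05). All 3 libraries at 200 µM lay far above those at 100 µM, with replicate 3 the lowest of them, and above the untreated level of 114, 119.8 and 119.9 CPM. OASL, an antiviral protein of the oligoadenylate synthetase family, went from 0.514, 0.292 and 0.421 CPM to 63.5, 73.2 and 48.3 CPM (log2 fold change 7.22 ± 0.27, adjusted p = 2.3e-05), with untreated cells at 0.416, 0.448 and 0.236 CPM. HMOX1, which breaks down heme, was found at 7.06, 5.22 and 6.45 CPM at 100 µM and 243, 266 and 177 CPM at 200 µM (log2 fold change 5.19 ± 0.22, adjusted p = 2.8e-05). Its untreated level, 7.90, 7.68 and 6.92 CPM, was close to that at 100 µM.

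Chemokine mRNAs that were almost absent at 100 µM were present at 200 µM. CCL5, a T-cell attractant, had 2 counts over the 3 libraries at 100 µM and 1214 at 200 µM, a ratio of 697 after scaling (95% counting interval 193 to 5760). CXCL10, a ligand of the receptor CXCR3, had 4 and 1229 counts (ratio 353, 137 to 1300), and CXCL11, another ligand of that receptor, had 4 and 805 (ratio 231, 89.9 to 850). Untreated cells had 2.53, 3.58 and 2.63 CPM of CXCL10, 2.98, 2.79 and 3.07 CPM of CXCL11 and 0.139, 0.0689 and 0.0675 CPM of CCL5. In the table of all 9 libraries a count of 2 occurs 3929 times and a count of 1 only 1656 times, and these intervals, which assume independent counts, may be too narrow. The antiviral enzyme RSAD2 (viperin), the Ras-related protein RASD1, FAM180A and the serpin SERPINB2 were also among the 12 genes with the largest rise, with log2 fold changes of 6.26 ± 0.25, 5.26 ± 0.38, 7.53 ± 0.67 and 6.0 ± 0.64. SERPINB2 stood at 11.7, 10.1 and 14.3 CPM at 200 µM, below the untreated 16.5, 19.35 and 16.2 CPM. RSAD2, RASD1 and FAM180A at 200 µM were above every untreated library. Another of the 12 was CITED1, a transcriptional co-regulator, at 5.24 ± 0.50; 39.4% of its exon bases are shared with AL133500.1, and 19.9% of those of SERPINB2 with SERPINB10.

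The largest falls were in a growth factor binding protein, a transcription factor and a gap junction gene. IGFBP5 (chr2:216672105-216695525), which binds insulin-like growth factors, stood at 31.8, 31.3 and 31.2 CPM at 100 µM and 0.326, 0.142 and 0.159 CPM at 200 µM (log2 fold change -7.20 ± 0.25, adjusted p = 1.7e-05). Every library at 200 µM was below 1 CPM, and the untreated level of 6.83, 5.92 and 6.72 CPM lay between the doses. ATOH8, a basic helix-loop-helix factor, was found at 37.7, 42.8 and 38.2 CPM at 100 µM and 1.01, 1.10 and 0.953 CPM at 200 µM (log2 fold change -5.26 ± 0.14, adjusted p = 1.1e-05), and untreated cells had 7.10, 6.85 and 7.70 CPM. ID3, an inhibitor of such factors, fell from 36.3, 32.1 and 58.1 CPM to 4.24, 2.99 and 4.05 CPM (log2 fold change -3.49 ± 0.28, adjusted p = 0.00022). SERPINA3, the protease inhibitor antichymotrypsin, fell from 945, 783 and 764 CPM to 46.4, 121 and 81.5 CPM (log2 fold change -3.33 ± 0.34, adjusted p = 0.00055), and 31.8% of its exon bases are shared with AL049839.2.

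Others with large falls were the connexin gene GJA5 (-4.78 ± 0.25), LRRC17 (-4.16 ± 0.38), C4orf19 (-4.0 ± 0.26), LGI4 (-3.87 ± 0.36), GASK1B (-3.85 ± 0.26) and NHS (-3.60 ± 0.26). Of these GJA5, LRRC17, C4orf19 and GASK1B share 20.3%, 11.9%, 16.2% and 13.2% of their exon bases with a neighbouring gene. PSMB3, a proteasome subunit, and PCGF2, a Polycomb protein, belong to the same 12 by size but varied between the libraries at 100 µM. PSMB3 stood at 3.08, 3.18 and 18.1 CPM at 100 µM and 0.254, 0.534 and 0.199 CPM at 200 µM (log2 fold change -4.59 ± 0.90, adjusted p = 0.0078). Untreated cells had 32.6, 70.1 and 61.1 CPM of PSMB3, above every library of both doses. PCGF2, which lies near it on chromosome 17 and shares 45.7% of its exon bases with CISD3, stood at 17.0, 1.43 and 4.15 CPM at 100 µM and 0.435, 0.498 and 0.913 CPM at 200 µM (log2 fold change -3.61 ± 0.93, adjusted p = 0.022). Neither call held without replicate 3 of 200 µM, where the adjusted p was 0.087 for PSMB3 and 0.12 for PCGF2, and that of PCGF2 was 0.086 without replicate 1 and 0.078 without replicate 2 of that dose.

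**Figure D2:**
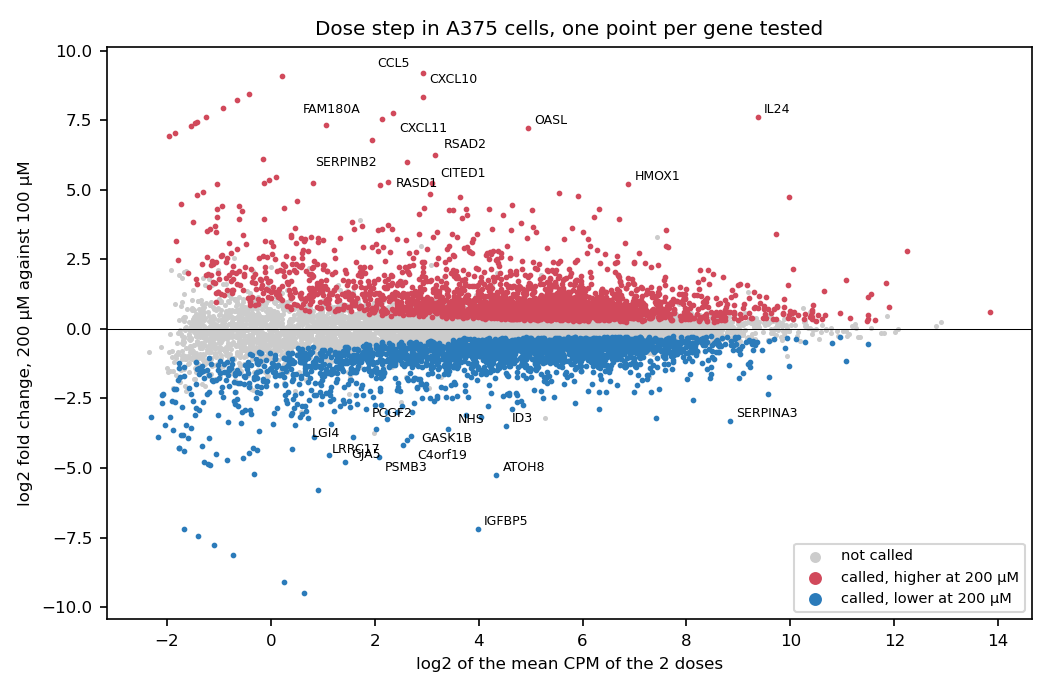
Log2 fold change of 200 µM against 100 µM (vertical) by the log2 mean CPM of the doses (horizontal), one point per gene tested, red for the 2480 genes called higher and blue for the 2387 called lower. The genes named are among the 12 with the largest rise and the 12 with the largest fall among called genes of at least 5 CPM at one dose whose libraries did not overlap between doses.

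By abundance, the called genes with the highest levels over the 6 libraries were the elongation factor EEF1A1 (0.59 ± 0.17), the ferritin heavy chain FTH1, the serpin SERPINE2 (1.64 ± 0.08) and the chaperone HSP90AA1 (0.78 ± 0.13) among those that rose. Among those that fell they were HNRNPA1 (-0.53 ± 0.08) and HNRNPA2B1 (-0.51 ± 0.10), which bind pre-mRNA, the tubulin TUBA1B (-1.16 ± 0.09) and the chaperone HSP90AB1 (-0.29 ± 0.08). SERPINE2, an inhibitor of extracellular proteases, stood at 1750, 1792 and 1781 CPM at 100 µM and 5610, 5368 and 5634 CPM at 200 µM, and the 3 untreated libraries, at 4172, 4299 and 4163 CPM, lay between them. TUBA1B was found at 3184, 2906 and 2835 CPM at 100 µM and 1261, 1411 and 1328 CPM at 200 µM, lower in every library of the higher dose; it shares 36.6% of its exon bases with AC011603.2. EEF1A1 was found at 11990, 11670 and 11450 CPM at 100 µM and 19390, 20640 and 12960 CPM at 200 µM (adjusted p = 0.033), and its call did not hold with the GC trend removed (adjusted p = 0.066), with scaling by total counts (0.073), or when any library except replicate 3 of 200 µM was left out (0.072 to 0.110).

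Most mitotic genes fell. Of 47 genes of G2, mitosis and the spindle tested, 38 were lower and 0 were higher, with a median log2 fold change of -1.11; without replicate 3 of 200 µM 44 were lower. CCNB1, the cyclin that drives entry into mitosis, stood at 412, 404 and 377 CPM at 100 µM and 112, 119.9 and 114 CPM at 200 µM (log2 fold change -1.79 ± 0.09, adjusted p = 4.8e-05). The doses did not overlap, as in nearly all called genes. The untreated libraries, at 372, 381 and 368 CPM, reached from just below the libraries at 100 µM into their range. PLK1, the mitotic Polo-like kinase, was found at 179, 158 and 152 CPM at 100 µM and 38.9, 44.9 and 38.2 CPM at 200 µM (log2 fold change -2.0 ± 0.12, adjusted p = 8e-05), with 12.5% of its exon bases shared with AC008870.3. KIF2C, a microtubule-depolymerizing kinesin of the centromere, fell from 184, 179.5 and 176 CPM to 58.8, 65.1 and 58.7 CPM, and INCENP, the scaffold of the chromosomal passenger complex, from 119, 102 and 108 CPM to 39.5, 36.2 and 37.9 CPM. Their log2 fold changes were -1.56 ± 0.09 and -1.53 ± 0.10. In bulk RNA, fewer cells in a phase and less mRNA per cell cannot be told apart.

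MKI67, the gene of the proliferation antigen Ki-67, was found at 466, 440.0 and 422 CPM at 100 µM and 139, 147 and 281 CPM at 200 µM (log2 fold change -1.23 ± 0.27, adjusted p = 0.012). Replicate 3 was far above the other two at 200 µM but below every library at 100 µM, and without it the log2 fold change was -1.62. Without replicate 1 of 100 µM the adjusted p was 0.0504, just above the threshold.

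The promoters of the mitotic genes are shown because their members moved together and because known elements of cell-cycle promoters can be read in them. RefSeq promoters (GRCh38.p14; 250 bases before to 50 after the start) were found for 40 of the 47 genes tested. The CHR letters TTTGAA, on either strand, were present in 27 of these, 67.5%, against 15.4% of all 27305 promoters of the same length. The variant TTTAAA was present in 35.0% against 12.3%, and CCAAT in 75.0% against 35.7%. Of the 32 members that fell and have a promoter entry, 22 held TTTGAA and 26 held CCAAT. Below are up to 155 bases upstream of the start of the 4 called members with the smallest p and an entry, 5′ to 3′ on the gene's strand, with both CHR forms and the CCAAT box, also where it reads ATTGG on this strand, in capitals. They come from chr5:69167030-69167149 (plus strand), chr16:23678726-23678880 (plus), chr1:44739717-44739836 (plus) and chr11:62123889-62124010 (plus).
CCNB1: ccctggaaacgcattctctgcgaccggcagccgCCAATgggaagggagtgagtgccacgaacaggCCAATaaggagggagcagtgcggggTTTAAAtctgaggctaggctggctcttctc
PLK1: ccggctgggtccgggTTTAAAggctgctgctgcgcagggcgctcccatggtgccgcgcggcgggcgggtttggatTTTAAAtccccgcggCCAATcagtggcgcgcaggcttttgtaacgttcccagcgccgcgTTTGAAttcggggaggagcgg
KIF2C: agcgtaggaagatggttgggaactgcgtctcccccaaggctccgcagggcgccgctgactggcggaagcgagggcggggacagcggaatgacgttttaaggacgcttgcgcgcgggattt
INCENP: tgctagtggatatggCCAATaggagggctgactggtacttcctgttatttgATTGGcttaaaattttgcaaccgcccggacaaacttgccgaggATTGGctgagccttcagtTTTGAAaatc
CCNB1, PLK1 and INCENP hold CCAAT letters and a CHR form within these bases, and KIF2C holds none of the letters searched in the 250 bases before its start. A match is a description of the letters and not of a bound site.

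Genes of DNA replication were lower by smaller factors. Of 46 tested, 28 were lower and 2 were higher, with a median of -0.47. RRM2, a subunit of the enzyme that makes deoxynucleotides, was found at 318, 333 and 336 CPM at 100 µM and 187, 172 and 180.5 CPM at 200 µM (log2 fold change -0.87 ± 0.08, adjusted p = 0.00045), and 20.2% of its exon bases are shared with AC007240.1. GINS2, a subunit of the replicative helicase, fell from 84.2, 79.3 and 83.4 CPM to 40.5, 46.9 and 37.6 CPM (log2 fold change -0.98 ± 0.11, adjusted p = 0.00092). The thymidylate synthase gene TYMS fell by 0.88 on the log2 scale (SE 0.10; 46.6% of its exon bases shared with ENOSF1). CCNE1, the cyclin of entry into S phase, went the other way, from 19, 20.5 and 20.7 CPM to 40.6, 38.7 and 39.2 CPM (log2 fold change 0.98 ± 0.10, adjusted p = 0.00059); all 3 untreated libraries, at 20.7, 18.6 and 18.5 CPM, matched the lower dose. The E2F-type letters TTTGGCGC stood in 25% of the 40 promoters found for this list, against 0.659% of all promoters, and TTTCCCGC in 27.5% against 1.66%. Each form was in 5 of the 23 promoters of members that fell, and TTTGGCGC was in 1 of the 2 of members that rose. Of 27 genes of homologous recombination and the Fanconi pathway, 10 were lower and 0 were higher (median -0.23). FANCI and FANCD2, which form the complex that is ubiquitinated at DNA crosslinks, had log2 fold changes of -0.57 ± 0.09 and -0.72 ± 0.11. RAD54L, a recombination motor protein (25.1% of exon bases shared with LRRC41), was at -1.03 ± 0.18, and the nuclease subunit EME1 (16.4% shared with LRRC59) at -0.61 ± 0.13.

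Targets of p53 rose more often than they fell. Of 31 p53 targets tested, 11 were higher and 4 were lower, with a median of 0.26. CDKN1A, the gene of the kinase inhibitor p21, stood at 84.7, 86.7 and 85.9 CPM at 100 µM and 326, 336 and 213 CPM at 200 µM (log2 fold change 1.77 ± 0.18, adjusted p = 0.00055). Replicate 3 was the lowest of the 200 µM libraries and still above every library at 100 µM and the untreated 138, 136 and 139.9 CPM. GADD45A, a stress gene that binds PCNA, rose from 29.5, 27.5 and 28.7 CPM to 81.1, 77.8 and 97.4 CPM (log2 fold change 1.58 ± 0.12, adjusted p = 0.00019). GDF15, a secreted stress factor, went from 5.26, 5.42 and 4.96 CPM to 45.0, 41.1 and 23.3 CPM (log2 fold change 2.81 ± 0.26, adjusted p = 0.00036). The death receptor gene TNFRSF10A (1.59 ± 0.16; 16.6% of exon bases shared with AC100861.1) also rose, and CYFIP2, a subunit of the WAVE actin regulator, fell (-1.06 ± 0.10). BAX, the pore-forming apoptosis effector, was at 112, 109 and 104 CPM at 100 µM and 98.1, 108 and 55.7 CPM at 200 µM and did not pass the test (-0.31 ± 0.23, adjusted p = 0.34).

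Among 39 apoptosis regulators 17 were higher and 2 were lower, and both survival and death genes rose. On the survival side BIRC3, an inhibitor of apoptosis that also serves NF-kB signalling, stood at 2.99, 2.79 and 3.27 CPM at 100 µM and 91.5, 66.4 and 112 CPM at 200 µM (log2 fold change 4.89 ± 0.23, adjusted p = 4.8e-05). MCL1, an anti-apoptotic BCL2 relative, rose from 373, 387 and 394 CPM to 739.7, 658 and 745 CPM (0.89 ± 0.09), and BCL2A1, another, from 1.19, 1.40 and 1.91 CPM to 20.9, 22.0 and 34.5 CPM (4.10 ± 0.29). In each of these genes the untreated libraries lay near the level at 200 µM or above it, at 133, 148 and 127 CPM for BIRC3, 741, 757 and 742 CPM for MCL1 and 21.2, 21.8 and 19.5 CPM for BCL2A1. On the death side PMAIP1, the BH3-only protein NOXA, was found at 43.9, 54.0 and 52.8 CPM at 100 µM and 192, 150.3 and 143 CPM at 200 µM (log2 fold change 1.69 ± 0.15, adjusted p = 0.00033). Its untreated level, 112.7, 120.3 and 105.1 CPM, lay between the doses. The receptor gene TNFRSF21 fell (-0.66 ± 0.09), and BCL2 itself did not pass the test (0.15 ± 0.18, adjusted p = 0.57). Without replicate 3 of 200 µM 25 of these genes were higher and 4 were lower.

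Genes of NF-kB signalling were higher at the higher dose, with an exception among the chemokines. Of 38 tested, 28 rose and 2 fell, and the median log2 fold change was 1.35. TRAF1, a signalling adaptor, stood at 7.48, 7.78 and 8.10 CPM at 100 µM and 151, 173 and 133 CPM at 200 µM (log2 fold change 4.29 ± 0.14, adjusted p = 1.5e-05), above the untreated 85.0, 79.7 and 92.9 CPM. TNFAIP3, the deubiquitinase A20 that limits NF-kB, rose from 1.80, 1.43 and 1.62 CPM to 15.8, 14.5 and 17.1 CPM (log2 fold change 3.29 ± 0.16, adjusted p = 4.8e-05), which is the untreated level (14.1, 14.7 and 14.9 CPM). CXCL8 and CXCL1, which attract neutrophils, were called in opposite directions. CXCL8 was found at 24.9, 28.4 and 35.5 CPM at 100 µM and 56.8, 36.1 and 54.3 CPM at 200 µM (0.73 ± 0.21, adjusted p = 0.034), all far below the untreated 1450, 1449 and 1130 CPM, and its adjusted p was 0.065 without replicate 3 of 200 µM and 0.11 to 0.13 without replicate 1 of 200 µM or replicate 1 or 2 of 100 µM. CXCL1 fell from 12, 13.1 and 14.7 CPM to 6.67, 4.95 and 7.11 CPM (log2 fold change -1.09 ± 0.18, adjusted p = 0.0038), from an untreated level of 91.2, 95.7 and 81.0 CPM. PTGS2, the inducible cyclooxygenase, rose from 0.642, 0.811 and 0.713 CPM to 16.1, 11.6 and 16.2 CPM (log2 fold change 4.34 ± 0.22, adjusted p = 4.8e-05). The kappaB-type letters GGANTTTCC, on either strand, were in 41.7% of the 36 promoters found for this list against 1.64% of all promoters, and in 7 of the 22 promoters of members that rose.

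**Figure D3:**
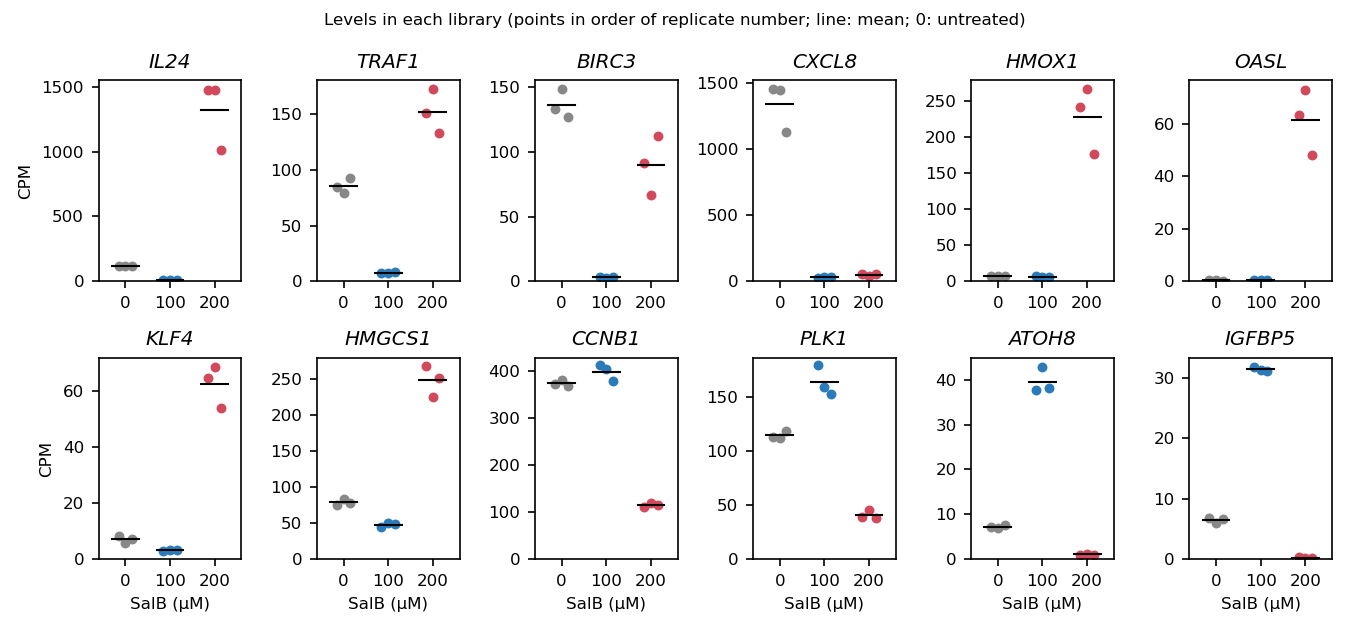
CPM in each library of 12 genes, in untreated cells (0), at 100 µM and at 200 µM of SalB, with a line at the mean of 3 libraries and each vertical axis starting at 0. BIRC3 and TRAF1 are low at 100 µM only, CXCL8 is low at both doses, and CCNB1, PLK1, ATOH8 and IGFBP5 are lowest at 200 µM.

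Most interferon-stimulated genes rose at 200 µM. Of 48 tested, 33 were higher and 3 were lower, with a median of 1.11. IFIT2, which binds viral RNA, stood at 8.54, 9.24 and 7.91 CPM at 100 µM and 138, 131 and 151 CPM at 200 µM (log2 fold change 4.03 ± 0.12, adjusted p = 1.5e-05), with untreated cells at 10.4, 12.9 and 11.1 CPM; 10.3% of its exon bases are shared with AL353751.1. RSAD2 was found at 0.161, 0.324 and 0.194 CPM at 100 µM and 18.4, 18.1 and 16.7 CPM at 200 µM (log2 fold change 6.26 ± 0.25, adjusted p = 2.3e-05), and in this gene and IFIT2 the doses were far apart. GBP1, an interferon-induced GTPase, fell from 14.5, 12.1 and 13.6 CPM to 7.87, 6.48 and 10.3 CPM (log2 fold change -0.71 ± 0.19, adjusted p = 0.028). The summed level of 12 leukocyte markers was 18.8 to 20.8 CPM at 100 µM and 59.7 to 85.3 CPM at 200 µM, with 2 of the 3 tested called higher, and 1 to 2 when 1 library was left out. Most of this was CD68, a lysosomal gene that shares 85.8% of its exon bases with AC016876.2. CD68 stood at 17.1, 13.8 and 15.7 CPM at 100 µM and 55.3, 58.2 and 82.8 CPM at 200 µM. CD14, the other, was at most 1.30 CPM in the 6 libraries. The libraries are of a cultured line, and the part of these marker genes in the NF-kB and interferon results was not tested. The lymphocyte markers above had 0 counts.

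The ISRE letters GAAANNGAA, on either strand, were present in 26 of the 39 promoters found for this list, 66.7%, against 8.29% of all promoters, and in 19 of the 27 promoters of members that rose. The upstream stretches of the 4 called members with the smallest p and an entry are shown for this reason, 5′ to 3′ on the gene's strand, with GAAANNGAA and its reverse complement TTCNNTTTC in capitals. They come from chr2:6865765-6865884 (plus strand), chr4:76023614-76023733 (minus), chr10:89327827-89327946 (plus) and chr10:89392493-89392612 (plus).
RSAD2: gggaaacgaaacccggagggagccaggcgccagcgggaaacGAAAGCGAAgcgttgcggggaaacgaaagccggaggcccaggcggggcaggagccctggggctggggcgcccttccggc
CXCL10: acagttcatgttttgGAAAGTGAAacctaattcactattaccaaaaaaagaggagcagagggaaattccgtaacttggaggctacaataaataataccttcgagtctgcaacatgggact
IFIT3: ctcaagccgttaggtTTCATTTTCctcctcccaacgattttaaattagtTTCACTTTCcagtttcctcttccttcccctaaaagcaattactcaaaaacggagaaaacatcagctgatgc
IFIT1: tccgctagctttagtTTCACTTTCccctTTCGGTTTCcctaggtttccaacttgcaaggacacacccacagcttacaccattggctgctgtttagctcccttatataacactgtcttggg
Each of the 4 holds the letters at least once, and IFIT3 and IFIT1 hold them at 2 places, read on the opposite strand.

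In antigen presentation by MHC class I 6 of 20 genes were higher and 1 was lower, with a median of 0.27. The class I light chain B2M was found at 460.2, 473 and 469 CPM at 100 µM and 888, 779.5 and 743 CPM at 200 µM (0.78 ± 0.10, adjusted p = 0.0011). The non-classical heavy chain HLA-E rose from 11.6, 11.7 and 11.6 CPM to 27.5, 27.4 and 24.1 CPM (1.18 ± 0.11), and HLA-B, which shares 18.9% of its exon bases with another annotated gene and resembles the other class I genes in sequence, by 2.34 ± 0.42 on the log2 scale. The peptide-loading chaperone PDIA3 rose (0.71 ± 0.11; 18.9% shared with ELL3) and the proteasome activator PSME1 fell (-0.46 ± 0.12). Without replicate 3 of 200 µM 10 of the 20 genes were higher.

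Immediate early genes of the AP-1, EGR and KLF families were nearly all higher. Of 27 tested, 24 rose and 0 fell, and the median was 1.61. KLF4, a zinc finger factor of epithelial differentiation, stood at 3.05, 3.34 and 3.21 CPM at 100 µM and 64.6, 68.5 and 53.9 CPM at 200 µM (log2 fold change 4.28 ± 0.15, adjusted p = 1.6e-05), and KLF2, its relative, at 4.01, 3.86 and 3.76 CPM at 100 µM and 44.4, 48.0 and 44.2 CPM at 200 µM (log2 fold change 3.55 ± 0.12, adjusted p = 1.5e-05). FOSB, an AP-1 subunit, rose from 2.50, 1.72 and 2.27 CPM to 45.9, 46.2 and 51.3 CPM (log2 fold change 4.46 ± 0.17, adjusted p = 2.3e-05). JUN, the central AP-1 subunit, rose from 14.1, 13.6 and 13.8 CPM to 73.6, 79.2 and 64.4 CPM (log2 fold change 2.39 ± 0.12, adjusted p = 4.8e-05). In none of these did the doses overlap, as in nearly all called genes. The untreated levels were those of 100 µM or nearer to them, for example 3.60, 3.17 and 3.17 CPM for KLF2.

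The output genes of the MAPK pathway, which the BRAF mutation drives in these cells, were mostly higher as well. Of 28 tested, 17 rose and 1 fell, with a median of 0.62. DUSP5, a phosphatase that removes phosphate from ERK, was found at 12.3, 12.6 and 13.8 CPM at 100 µM and 213, 229 and 146 CPM at 200 µM (log2 fold change 3.93 ± 0.20, adjusted p = 4.8e-05). HBEGF, a ligand of the EGF receptor, rose from 4.56, 5.29 and 5.18 CPM to 32.3, 32.6 and 32.9 CPM (log2 fold change 2.70 ± 0.12, adjusted p = 3.8e-05). The cytokine gene IL11 (3.46 ± 0.21) and the feedback inhibitor SPRY1 (1.84 ± 0.14) rose and were above the untreated libraries too. ETV5, an ETS factor of the same pathway, fell from 111, 113 and 113 CPM to 82.6, 80.8 and 64.2 CPM (log2 fold change -0.56 ± 0.12, adjusted p = 0.011). MYC rose modestly, from 25.8, 21.4 and 22.9 CPM to 38.6, 33.6 and 39.0 CPM (log2 fold change 0.67 ± 0.12, adjusted p = 0.0063).

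**Figure D4:**
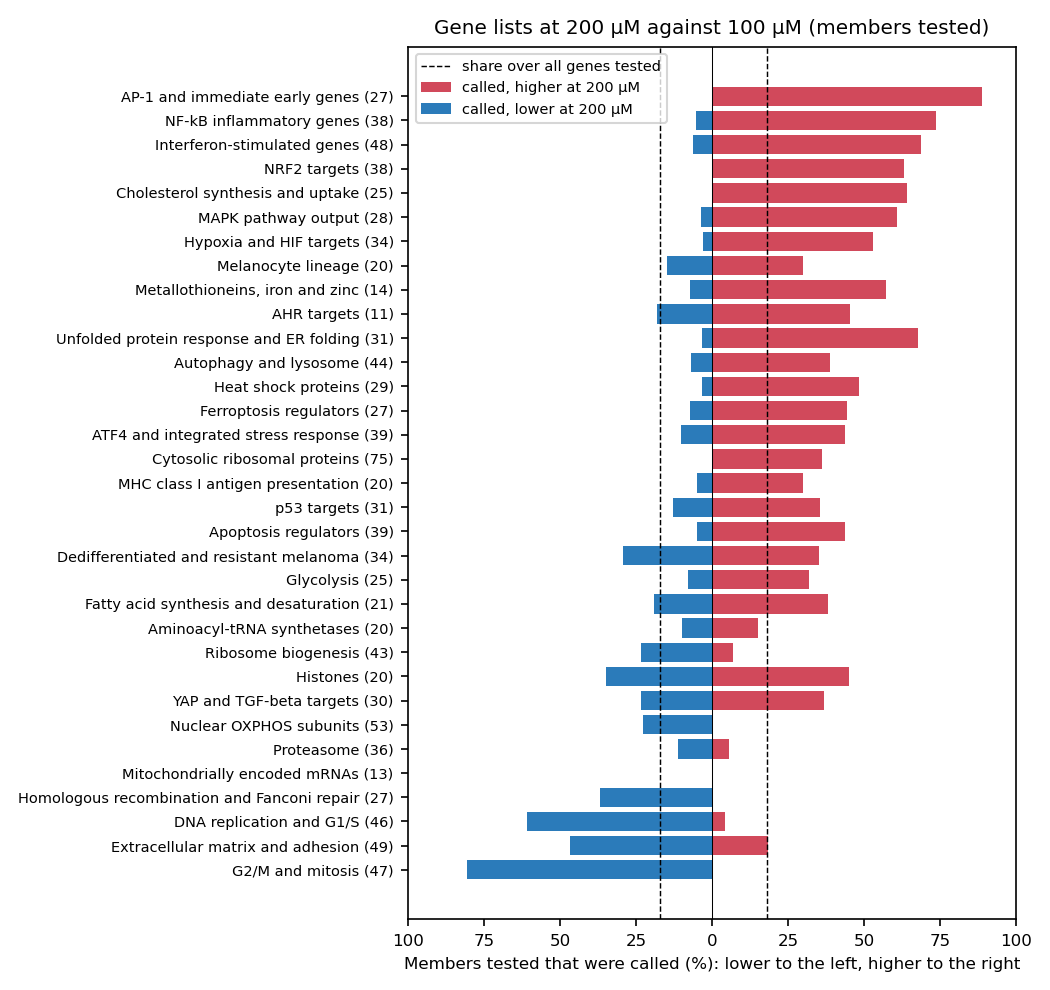
Share of the members tested that were called higher (red, to the right) or lower (blue, to the left) at 200 µM in 33 gene lists, with the number of members tested in brackets and dashed lines at the shares over all genes, 18.0% and 17.3%. The lists are in order of their median log2 fold change, from immediate early genes at the top to mitotic genes at the bottom.

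The oxidative stress response of NRF2 was higher. Of 38 NRF2 targets tested, 24 rose and 0 fell, and the median was 0.83. TXNRD1, the thioredoxin reductase, stood at 378, 404 and 395 CPM at 100 µM and 1865, 1764 and 1543 CPM at 200 µM (log2 fold change 2.14 ± 0.10, adjusted p = 4.8e-05). SQSTM1, the autophagy receptor p62, rose from 137, 169.5 and 131 CPM to 1596, 1758 and 1266 CPM (log2 fold change 3.40 ± 0.17, adjusted p = 4.8e-05), with 22.0% of its exon bases shared with MRNIP. Both were also above the untreated libraries. The mRNA of NRF2 itself, NFE2L2, was found at 163, 158 and 167 CPM at 100 µM and 200.0, 176 and 319 CPM at 200 µM and did not pass the test (0.51 ± 0.22, adjusted p = 0.11); replicate 3 was the highest, and it was called higher without replicate 3 (0.22, adjusted p = 0.032) or without replicate 2 (adjusted p = 0.032) of 200 µM. NFE2L2 shares 20.9% of its exon bases with AC019080.1. The letters TGACNNNGC of the antioxidant response element, on either strand, were in 31.0% of 29 promoters found, against 13.6% of all promoters.

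Iron storage and zinc export genes were among those that rose. FTH1, the ferritin heavy chain, went from 1301, 1181 and 1158 CPM to 7155, 7995 and 10310 CPM (log2 fold change 2.81 ± 0.15, adjusted p = 6.4e-05); 62.4% of its exon bases are shared with BEST1, and near-identical ferritin copies exist in the genome. FTL, the ferritin light chain, rose from 1046, 962 and 954 CPM to 3355, 3730 and 2792 CPM (log2 fold change 1.74 ± 0.12, adjusted p = 0.00016). SLC30A1, the zinc exporter, rose by 1.78 ± 0.16, and IREB2, which represses ferritin translation, fell by 0.36 on the log2 scale (SE 0.10). In all, 8 of 14 genes of metallothioneins, iron and zinc were higher and 1 was lower. Of 27 ferroptosis regulators 12 were higher, FTH1, FTL, PTGS2 and the desaturase gene FADS1 (0.60 ± 0.08) leading by p, and 2 were lower, among them the phosphatidylethanolamine-binding protein gene PEBP1 (-0.55 ± 0.12).

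Genes of protein folding in the ER were higher by smaller factors. Of 31 tested, 21 rose and 1 fell (median 0.47). HSP90B1, the chaperone GRP94, stood at 1778, 1812 and 1728 CPM at 100 µM and 3732, 3491 and 4661 CPM at 200 µM (log2 fold change 1.16 ± 0.12, adjusted p = 0.00063). CRELD2, a folding factor, rose from 32.6, 30.2 and 29.2 CPM to 113, 129 and 94.7 CPM (1.87 ± 0.14), and the secreted chaperone MANF from 159.5, 157 and 153 CPM to 362, 365 and 287 CPM (1.11 ± 0.12). OS9, a lectin of ER quality control, rose by 0.81 ± 0.09 (13.5% of exon bases shared with AC025165.2), and CREB3L2, an ER-anchored factor, fell (-0.49 ± 0.11). The number of members that rose was 13 without replicate 1 of 100 µM.

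In the integrated stress response, transcription factors and the feedback phosphatase subunit led. PPP1R15A (GADD34), which directs dephosphorylation of eIF2alpha, was found at 39.2, 34.5 and 33.3 CPM at 100 µM and 228, 237 and 243 CPM at 200 µM (log2 fold change 2.72 ± 0.11, adjusted p = 2.3e-05). DDIT3 (CHOP), a pro-apoptotic factor, rose from 17.6, 18.1 and 17.7 CPM to 128, 133 and 95 CPM (log2 fold change 2.74 ± 0.15, adjusted p = 6.5e-05), with 39.6% of its exon bases shared with MARS. ATF3 (2.73 ± 0.17) and the small stress protein NUPR1 (2.96 ± 0.20) rose too. ALDH18A1, an enzyme of proline synthesis, fell (-1.05 ± 0.14). Of 39 genes of this list 17 were higher and 4 were lower (median 0.30). The letters TGATGNAA of the C/EBP-ATF element, on either strand, were in 24.2% of the 33 promoters found against 3.67% of all promoters. The aminoacyl-tRNA synthetases had 3 of 20 genes higher and 2 lower, with 1 to 5 higher and 2 to 5 lower when 1 library was left out. Their called members named by the rule were WARS1 (1.04 ± 0.11; 10.6% shared with AL157871.4), GARS1 (0.43 ± 0.12), QARS1 (-0.58 ± 0.12) and VARS1 (-1.40 ± 0.22).

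Heat shock proteins were in part higher, with 14 of 29 genes up and 1 down (median 0.40). HSPA1A, the inducible HSP70, stood at 5.65, 5.90 and 5.80 CPM at 100 µM and 21.6, 25.1 and 30.7 CPM at 200 µM (log2 fold change 2.16 ± 0.16, adjusted p = 0.00017); HSPA1B, its near-identical copy, which also shares 36.5% of its exon bases with AL671762.1, was at 2.30 ± 0.31, and reads of the pair may be split between them. The co-chaperones DNAJB1 (1.06 ± 0.11) and DNAJB4 (1.61 ± 0.19) rose. Heat shock element letters GAANNTTC stood in 38.5% of the 26 promoters found against 6.87% of all. The number of members that rose was 8 to 9 when any 1 of the libraries at 100 µM was left out.

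Autophagy and lysosome genes rose for 17 of 44 members and fell for 3 (median 0.40); without replicate 3 of 200 µM 27 rose. MAP1LC3B, the LC3 protein of the autophagosome membrane, was found at 91.4, 99.8 and 106 CPM at 100 µM and 258, 225 and 273 CPM at 200 µM (log2 fold change 1.34 ± 0.11, adjusted p = 0.00028). The cathepsin gene CTSL rose (1.29 ± 0.11), as did WIPI1 (2.14 ± 0.14; 28.1% of exon bases shared with ARSG), while BECN1, of the lipid kinase complex that starts autophagosomes, was lower (-0.41 ± 0.11; 17.1% shared with CNTD1). SQSTM1, given above, belongs to this list as well. Several genes stand in more than one list, so counts of different lists are not independent.

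Cholesterol synthesis genes were higher at 200 µM. Of 25 tested, 16 rose and 0 fell, with a median of 0.73. HMGCS1, which makes HMG-CoA, stood at 43.9, 49.9 and 49.1 CPM at 100 µM and 268, 225 and 251 CPM at 200 µM (log2 fold change 2.38 ± 0.11, adjusted p = 4.8e-05), with 15% of its exon bases shared with AC114947.2. INSIG1, which holds back the SREBP factors, went from 39.0, 43.7 and 42.0 CPM to 235, 187 and 221 CPM (log2 fold change 2.37 ± 0.12, adjusted p = 5.1e-05). In both the order of the groups was 100 µM, untreated and 200 µM, with 75.6, 82.7 and 78.0 CPM of HMGCS1 and 73.5, 70.8 and 71.5 CPM of INSIG1 in untreated cells. The sterol element letters TCACNCCAC, on either strand, were in 1 of 20 promoters found, 5%, against 1.15% of all promoters. Of the 10 promoters of members that rose, 0 held them. Genes of fatty acid synthesis were mixed, with 8 of 21 higher and 4 lower. FADS3, of the fatty acid desaturase family, rose from 33.0, 30.9 and 31.5 CPM to 168, 184 and 143 CPM (2.38 ± 0.12), ACSL1, which activates fatty acids, rose (1.33 ± 0.11), and the desaturase gene SCD5 fell (-1.13 ± 0.14).

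Hypoxia and HIF target genes rose for 18 of 34 members and fell for 1, with a median of 0.59. NDRG1, a stress and differentiation gene, was found at 60.5, 55.9 and 51.6 CPM at 100 µM and 264, 279 and 242 CPM at 200 µM (log2 fold change 2.22 ± 0.11, adjusted p = 4.8e-05). VEGFA, the endothelial growth factor, rose from 32.5, 30.9 and 30.8 CPM to 90.1, 83.9 and 96.2 CPM (log2 fold change 1.52 ± 0.10, adjusted p = 0.00012). ADM, a vasodilator peptide, and SLC2A3, the glucose transporter GLUT3, rose by 1.64 ± 0.10 and 1.87 ± 0.11. PFKFB3, a regulator of glycolysis, fell instead, from 127, 126 and 128 CPM to 54.3, 65.6 and 33.8 CPM (log2 fold change -1.30 ± 0.23, adjusted p = 0.0047). HIF1A itself was found at 267, 269 and 266 CPM at 100 µM and 311, 256 and 524 CPM at 200 µM and did not pass the test (0.44 ± 0.25, adjusted p = 0.20), with replicate 3 at 200 µM far above all others and an adjusted p of 0.047 without replicate 2. The letters NACGTGC stood in 40.7% of the 27 promoters found for this list against 6.84% of all promoters. Of 25 glycolysis genes 8 were higher, among them HK2 (0.73 ± 0.10) and ALDOC (1.46 ± 0.16; 10.1% shared with AC005726.4), and 2 were lower; without replicate 3 of 200 µM 14 were higher and 4 were lower.

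**Figure D5:**
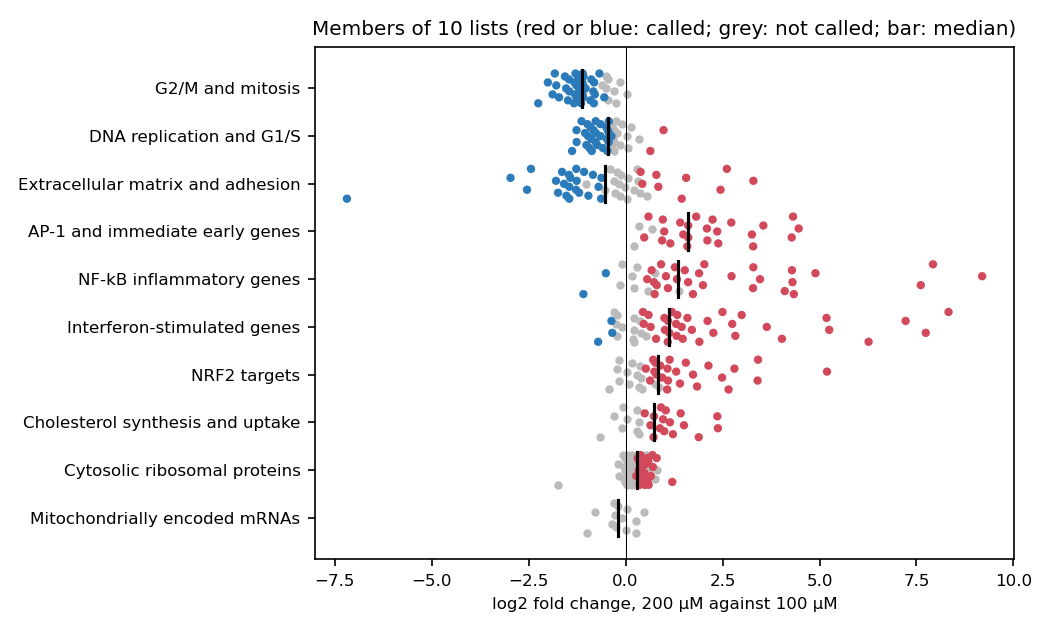
Log2 fold change at 200 µM against 100 µM of each member tested in 10 lists, red or blue where called and grey where not, with a black bar at the median. Mitotic genes lie almost wholly to the left of 0 and immediate early genes to the right, while matrix genes spread to both sides.

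Matrix and adhesion genes fell more often than they rose. Of 49 tested, 23 were lower and 9 were higher, with a median of -0.52. COL5A2, a chain of fibrillar collagen V, stood at 469, 486 and 484 CPM at 100 µM and 82.8, 85.5 and 78.5 CPM at 200 µM (log2 fold change -2.54 ± 0.09, adjusted p = 1.6e-05). TNC, the matrix glycoprotein tenascin C, fell from 1273, 1156 and 1134 CPM to 332, 371 and 363 CPM (log2 fold change -1.74 ± 0.09, adjusted p = 5.9e-05). In both the untreated libraries, at 138, 136 and 138 CPM and 369.6, 373 and 380.5 CPM, were nearer to the level at 200 µM than to that at 100 µM. ITGA2, the collagen-binding integrin subunit, rose from 28.5, 26.3 and 30.3 CPM to 168, 143 and 209 CPM (log2 fold change 2.61 ± 0.16, adjusted p = 9.2e-05), and COL8A1, a short-chain collagen, rose by 2.45 ± 0.12. Of the fibroblast and endothelial markers, 7 of 10 tested were lower (3 to 6 when 1 library was left out, the fewest without a library of 100 µM), among them LUM (-1.46 ± 0.21) and PDGFRA (-1.31 ± 0.14; 15.8% shared with AC058822.1), and KDR (1.58 ± 0.17) and PECAM1 (3.15 ± 0.50) were higher. Their summed level was 86.8 to 92.2 CPM at 100 µM and 57.6 to 63.3 CPM at 200 µM, and its part in the matrix result was not tested.

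Targets of YAP and TGF-beta went both ways, with 11 of 30 higher and 7 lower. ID2 and ID3, of the ID family of helix-loop-helix inhibitors, moved in opposite directions. ID2 rose from 3.02, 2.66 and 3.08 CPM to 33.6, 30.9 and 41.0 CPM (log2 fold change 3.59 ± 0.16, adjusted p = 4e-05), while ID3 fell, as given above. CCN1, a matricellular protein, rose from 56.7, 54.7 and 49.0 CPM to 154, 168 and 161 CPM (1.59 ± 0.10). IGFBP3, a binding protein of insulin-like growth factors, stood at 145, 148 and 150.1 CPM at 100 µM and 349.6, 332 and 382 CPM at 200 µM (log2 fold change 1.26 ± 0.09, adjusted p = 0.00017), both far below the untreated 1390, 1372 and 1380 CPM, and thus opposite in direction to IGFBP5.

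Melanocyte genes were called higher for 6 of 20 tested and lower for 3. GPNMB, a lysosomal glycoprotein of pigment cells, stood at 149, 149 and 143 CPM at 100 µM and 554, 524 and 659.7 CPM at 200 µM (log2 fold change 1.98 ± 0.11, adjusted p = 7.1e-05), with untreated cells at 131, 134 and 135 CPM. S100B, a calcium-binding marker of melanoma, fell from 62.0, 64.0 and 60.8 CPM to 16.7, 19.2 and 21.3 CPM (log2 fold change -1.71 ± 0.12, adjusted p = 0.00016). ST3GAL6, a sialyltransferase, rose (1.33 ± 0.13; 11.1% shared with PDLIM1P4). The lineage factor MITF was found at 16.6, 17.1 and 19.1 CPM at 100 µM and 20.8, 15.4 and 23.6 CPM at 200 µM and did not pass the test (0.18 ± 0.17, adjusted p = 0.45). SOX10 did not pass it either (-0.16 ± 0.12, adjusted p = 0.32) but was called lower without replicate 3 of 200 µM (-0.28, adjusted p = 0.008). Of the other melanoma markers PRAME, a tumour antigen, fell (-1.02 ± 0.12), TFAP2A fell (-1.16 ± 0.15; 16.7% shared with TFAP2A-AS2) and S100A1 rose (1.12 ± 0.21; 18.3% shared with AL162258.2). The summed level of melanoma markers was 1584 to 1666 CPM at 100 µM and 1291 to 1585 CPM at 200 µM.

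Genes of dedifferentiated or drug-resistant melanoma had no common direction, with 12 of 34 higher and 10 lower. JUN and SERPINE2 rose, and TNC and IGFBP5 fell, as given above. Among epithelial and keratinocyte markers 1 of 5 tested was called, CLDN4, a tight junction protein, at 5.20, 4.90 and 6.19 CPM at 100 µM and 37.2, 41.0 and 15.6 CPM at 200 µM (log2 fold change 2.53 ± 0.36, adjusted p = 0.0022); replicate 3 lay closer to the untreated 15.8, 14.9 and 14.3 CPM.

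Of 75 ribosomal protein genes tested, 27 were higher, 0 were lower and the others were not called, and the median was 0.29. RPS4X stood at 1693, 1581 and 1547 CPM at 100 µM and 2155, 2345 and 2651 CPM at 200 µM (log2 fold change 0.57 ± 0.10, adjusted p = 0.0056). RPS27 rose from 327, 277 and 288 CPM to 513, 586 and 954 CPM (1.20 ± 0.23), with replicate 3 the highest, and RPL30 (0.55 ± 0.10; 21.6% shared with AP003352.1) and RPL39 (0.59 ± 0.11) rose too. These genes have many processed copies in the genome, which can share reads. The count of members that rose ranged from 5 to 48 when 1 library was left out, the highest without replicate 3 of 200 µM. Factors of ribosome assembly had 3 of 43 genes higher and 10 lower, with a median of 0.008. These are 7.0% and 23.3%, against 18.0% and 17.3% of all genes. Between 3 and 16 were lower when 1 library was left out. POLR1A, the large subunit of RNA polymerase I, fell from 93.1, 89.2 and 82.7 CPM to 51.9, 58.5 and 50 CPM (log2 fold change -0.72 ± 0.11, adjusted p = 0.0025). RRP1B (-0.51 ± 0.10), MYBBP1A (-0.51 ± 0.11) and the importin gene IPO4 (-1.07 ± 0.22; 70.1% shared with AL136295.4) fell, and NOP2, an rRNA methyltransferase, rose (0.43 ± 0.10; 54.4% shared with AC006064.6).

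Nuclear genes of oxidative phosphorylation showed 12 falls and 0 rises among 53 members (median -0.13). NDUFA9, of complex I, was found at 104, 100.1 and 109 CPM at 100 µM and 71.3, 75.6 and 70.1 CPM at 200 µM (log2 fold change -0.53 ± 0.09, adjusted p = 0.0047), and 10.6% of its exon bases are shared with AC005833.1. CYC1 of complex III (-0.55 ± 0.12) and the complex I gene NDUFV2 (-0.47 ± 0.09; 28.4% shared with AP005263.1) fell as well. Between 3 and 20 members fell when 1 library was left out. None of the 13 mitochondrially encoded mRNAs passed the test in 6 libraries (median -0.19). Without replicate 3 of 200 µM, the library with the high mitochondrial share, 11 of them were lower, with a median of -0.86.

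Of 36 proteasome genes 2 were higher and 4 were lower, with 0 to 5 higher and 1 to 10 lower when 1 library was left out, the most of both without replicate 3 of 200 µM. Besides PSMB3, described above, PSMD1 (-0.38 ± 0.08; 10.8% shared with HTR2B), PSMD2 (-0.57 ± 0.15) and PSMC5 (-0.59 ± 0.15; 19.5% shared with FTSJ3) fell and PSMD8 rose (0.47 ± 0.13). Histone genes split, with 9 of 20 higher and 7 lower. The variant histone gene H2AX fell from 191, 161 and 169 CPM to 78.1, 87.5 and 63.4 CPM (-1.19 ± 0.14) and H2AZ2, another, fell as well (-0.93 ± 0.11), while H4C8, of the replication-dependent clusters, was higher (2.79 ± 0.35) at a low level of at most 3.61 CPM. Messages of replication-dependent histones mostly lack a poly-A tail, so the capture limits what these values show. Of 11 AHR targets 5 were higher, among them TIPARP, an ADP-ribosyltransferase (1.52 ± 0.13), and 2 were lower. These were TGFA, a growth factor of the EGF family, from 177, 190.0 and 198 CPM to 78.7, 69.8 and 67.5 CPM (-1.39 ± 0.10), and ITPRID2, from 1381, 1450 and 1487 CPM to 574, 511 and 615 CPM (-1.34 ± 0.10).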

How the data were processed

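mRNA was sequenced in 9 libraries of A375 cells, of which the 6 at 100 µM and 200 µM SalB entered the tests. The authors deposited whole-number counts per gene and library, not normalized; the submitters' processing notes name HISAT2, featureCounts, FastQC and DESeq2, and the build GRCh38, without versions or roles. Not given in the sources used here are the annotation release, the strand setting and whether mates were counted separately. Genes that overlap on either strand may therefore draw on the same reads, and where an overlap reaches 10% of a named gene's exon bases (GENCODE v29) it is given. A deposited list of 100 features in a unit named nowhere was not used here.

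Of 22605 rows, 2142 features assembled without an Ensembl identifier were set aside. Of 1012 genes without a symbol, 1000 were matched by identifier. Genes were filtered with filterByExpr of edgeR 4.0.16 (R 4.3.3; minimum count 10), which left 13783, and scaled by TMM. A robust quasi-likelihood fit with the dose as its term left 4 residual degrees of freedom. P-values of the F test were adjusted by Benjamini-Hochberg over all genes tested, with calls at values under 0.05 whatever the fold. SE is the absolute log2 fold change over the square root of F. CPM is scaled by TMM over all 9 libraries. The fit was tested on simulated data. All pairs of libraries within a dose differed beyond sampling noise (chi-square per degree of freedom 8.15 to 147.9). An exact permutation test of 3 against 3 libraries could not reach a two-sided p under 0.05.

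Lists are described by counts of called members and by their median, with no test. Members and lists were chosen with earlier results of these data known. Named genes are the 12 largest called changes each way (at least 5 CPM at one dose, no overlap of libraries), up to 4 called members of smallest p in each list with the smallest-p member against the main direction, 14 landmark genes, and the 4 most abundant called genes each way. Some genes these rules pick are not reported here. Promoters came from RefSeq (GRCh38.p14), matched by symbol. Alternatives were DESeq2 1.42.0, other scalings and filters, and removal of GC and length trends by spline fits. Further ones had all 9 libraries in the fit, or each library left out.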

Additional observations from a re-analysis of the deposited data

Results flagged for a closer look

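The 2142 features that the authors assembled without an Ensembl identifier enter no comparison above. Scaled and tested in the same way, 1427 of them passed the filter on low counts, and 123 were higher and 134 lower at 200 µM. Both are smaller shares than the 18.0% higher and 17.3% lower among annotated genes. Of the assembled features that were higher, 80 also stood above every untreated library, which is the reason for giving them here. The same count was not made for annotated genes. The assembled features carry no gene name in the table, and no position was used for them.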

How the results depend on the processing

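The number of genes called, 4867 with all 6 libraries, ranged from 2828 to 7103 when 1 library was left out, with 1455 to 3523 higher and 1368 to 3580 lower; the lowest totals were those without a library of 100 µM and the highest that without replicate 3 of 200 µM. Under the other 12 alternatives it lay between 4283 and 6370, within 1.5 times of 4867, and no gene called in both changed direction in any of the 18. Scaling by total counts gave 2072 higher and 2857 lower, with the median of all genes at -0.09. Deviations of same-numbered libraries from the mean of their dose correlated at -0.02, -0.11 and -0.01. With 3 libraries a dose and replicate 3 of 200 µM apart, these values cannot show whether same-numbered cultures were handled together. With the replicate block 4283 genes were called, 4041 of them among the 4867. Of 164 called genes chosen by the naming rule, 140 were called in every alternative and none reversed. The calls lost in at least 1 included those of BECN1, CD14, CREB3L2, CXCL8, CYC1, EEF1A1, EME1, ETV5, GARS1, GBP1, HSP90AB1, IREB2, MKI67, MYBBP1A, NOP2, PCGF2, PEBP1, PSMB3, PSMC5, PSMD1, PSMD2, PSMD8 and PSME1. In the direction with more calls, counts of list members moved by over 1.5 times when a library of 100 µM or replicate 1 of 200 µM was left out for replication (17 to 34 lower), recombination (4 to 14 lower), apoptosis (8 to 25 higher), glycolysis (3 to 14 higher), ribosome biogenesis (3 to 16 lower), ferroptosis (7 to 13 higher) and autophagy (11 to 27 higher), with the highest count in each without replicate 3 of 200 µM. The other lists that moved as much are the proteasome, synthetases, oxidative phosphorylation, ribosomal proteins, heat shock, ER folding, MHC class I, and fibroblast and leukocyte markers, with counts given above, and melanoma (3 to 5 lower) and epithelial markers (1 to 2 higher). Medians changed sign between alternatives, and carry no direction, for ribosome biogenesis, synthetases, histones, YAP targets, glycolysis, fatty acid synthesis, dedifferentiated melanoma, melanoma markers and mitochondrially encoded mRNAs (-0.86 to 0.11). Depth limits the genes with few counts, and counting intervals are given beside CCL5, CXCL10 and CXCL11 only. FAM180A, RSAD2, SERPINB2, RASD1, IGFBP5, GJA5, PSMB3 and PECAM1 also had at most 29 counts over the libraries of one dose. For IGFBP5, with 17 counts at 200 µM and 2917 at 100 µM, the ratio was 149 (95% counting interval 93.2 to 257).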

Other observations

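Genes seen at one dose only were looked up after their values were seen. With no counts in any library at 100 µM and at least 10 in each library at 200 µM there were 10 genes, among them several cytokines. IFNB1, the interferon beta gene, had 18, 25 and 25 counts at 200 µM, and IFNL1, an interferon lambda gene, had 13, 11 and 30; neither had a count in untreated cells. Against a floor of 3 counts over the group, IFNB1 was at least 26.0-fold higher and IFNL1 at least 20.7-fold higher than at 100 µM. IL6, a cytokine driven by NF-kB, had 16, 20 and 47 counts (at least 31.8-fold higher), with 8, 15 and 14 in untreated cells. LCN2, the iron-siderophore binding protein lipocalin 2, had 35, 45 and 41 counts at 200 µM (at least 46.3-fold higher than at 100 µM) and 233, 209 and 301 in untreated cells. The stress keratin gene KRT16 was at least 39.4-fold higher. Others were BTNL8, SLC22A14, TRIM63 and PNLIPRP3.

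In the opposite direction 7 genes had no count at 200 µM and at least 10 in each library at 100 µM. POSTN, the matrix protein periostin, had 18, 17 and 23 counts at 100 µM and was at least 16.8-fold lower at 200 µM. SLC27A6, a fatty acid transporter, had 23, 36 and 28 counts (at least 25.3-fold lower). The ion transport regulator FXYD7 and the potassium channel gene KCNJ16 were at least 32.5-fold and 20.3-fold lower, and 3 genes have no symbol. These floors cover counting error only and assume independent counts; if read mates were counted separately, which the sources used here do not say, the bounds in both directions are too high.

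PSMB3 and the nearby PCGF2 on chromosome 17 varied widely within 100 µM. PSMB3 also ranged from 32.6 to 70.1 CPM in the untreated libraries. PCGF2 had 17.0, 1.43 and 4.15 CPM in the libraries of that dose, and CISD3, which shares exon bases with it, had 19.6, 18.5 and 27.2 CPM there and 21.6, 25.4 and 21.5 CPM at 200 µM.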
